A study of Mus musculus with 14 samples.

Results

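Arl4d and 9 other genes of small GTPases were followed across 14 RNA-seq libraries of cultured mouse cortical neurons. The 10 genes, Arl4a, Arl4c, Arl4d, Arl5b, Rem2, Gem, Rheb, Rasd1, Rhob and Rnd3, were taken by symbol from the deposited gene matrices of 52459 symbols, and 10 of 10 were found. All of them passed the filter on low counts and were among the 17732 genes tested. The set was drawn up with earlier results of these libraries in view, as GTPase genes known to respond to stimulation. They were chosen by their measured CPM changes after KCl, and Arl4d was selected on the difference in its KCl response between the 2 mouse lines. The responses to KCl and the line difference in that response are therefore given as descriptions without a test. Comparisons of mutant with wild type, and the line difference at basal for the 9 genes other than Arl4d, were not used in the choice and were tested.

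The neurons came from E16.5 embryos that carried a knock-in substitution of serine 1382 in BRG1, the motor subunit of the BAF complexes, which move nucleosomes, or from wild-type littermates. The SE line gave neurons with S1382E (glutamate), in 2 KCl and 2 basal libraries, and its wild-type littermates, in 1 KCl and 1 basal library. The SA line gave neurons with S1382A (alanine), in 2 KCl and 2 basal libraries, and its wild-type littermates, in 2 KCl and 2 basal libraries. Tetrodotoxin, a sodium channel blocker, at 1 µM and APV, an NMDA receptor blocker, at 100 µM were given on day 5 in vitro, and KCl libraries had 50 mM KCl for 1 h on day 6. Strain, zygosity and sex are not given in the sources used here, nor whether the same-numbered KCl and basal libraries share a culture or an animal. The p-values therefore measure the spread between these libraries, part of which may be technical.

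Small GTPases are molecular switches that bind effectors while loaded with GTP and release them after hydrolysis, with exchange factors and GTPase-activating proteins setting the balance. The ARL4 proteins sit at the plasma membrane, where in mammalian cell lines they recruit cytohesins, the exchange factors that load ARF6, and so bear on actin and membrane traffic. REM2 and GEM belong to the RGK group, which bind the beta subunit of voltage-gated calcium channels and lower calcium current, and REM2 limits dendrite branching in rodent neurons. Transcription of several such genes follows membrane depolarisation in neurons, and a calcium-driven route through CREB at the cAMP response element (CRE) is the textbook example.

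The promoter windows of the genes that the results turn on are printed first, so that the expression values can be read beside them. The RefSeq promoter table of GRCm38.p6, which runs from 250 bases before to 50 bases after a start, matched 8 of the 10 genes (9 windows, as Arl4a has 2 starts). Rasd1 and Gem were not matched. Shown are Arl4d, whose response differed most between lines, Arl5b and Rem2, which rose strongly in both lines, and Rnd3, whose window holds other motifs. Sequences are those of the reference genome, 5′ to 3′ on the strand of the gene, and the lines' own DNA was not read. Capitals mark TGACGTCA (the full CRE, Arl4d and Arl5b), GCGNGGGCG (the EGR site, Arl5b), and the CArG box and TATAAA (Rnd3). Arl4d lies on the plus strand at chr11:101665291-101665590, Arl5b on the plus strand at chr2:15055070-15055369, Rem2 on the plus strand at chr14:54475850-54476149, and Rnd3 on the minus strand at chr2:51149062-51149361.
Arl4d: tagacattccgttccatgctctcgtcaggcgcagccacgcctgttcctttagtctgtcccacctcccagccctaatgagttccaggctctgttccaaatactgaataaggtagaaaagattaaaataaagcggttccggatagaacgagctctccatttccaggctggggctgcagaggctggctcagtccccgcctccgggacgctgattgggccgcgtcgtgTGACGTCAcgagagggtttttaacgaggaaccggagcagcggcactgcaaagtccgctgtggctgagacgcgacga
Arl5b: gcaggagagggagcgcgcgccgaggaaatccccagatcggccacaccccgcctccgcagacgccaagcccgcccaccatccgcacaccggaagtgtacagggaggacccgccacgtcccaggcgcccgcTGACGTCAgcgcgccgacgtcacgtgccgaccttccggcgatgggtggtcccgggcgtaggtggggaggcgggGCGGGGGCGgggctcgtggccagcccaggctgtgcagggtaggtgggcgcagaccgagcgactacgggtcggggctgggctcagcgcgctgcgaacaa
Rem2: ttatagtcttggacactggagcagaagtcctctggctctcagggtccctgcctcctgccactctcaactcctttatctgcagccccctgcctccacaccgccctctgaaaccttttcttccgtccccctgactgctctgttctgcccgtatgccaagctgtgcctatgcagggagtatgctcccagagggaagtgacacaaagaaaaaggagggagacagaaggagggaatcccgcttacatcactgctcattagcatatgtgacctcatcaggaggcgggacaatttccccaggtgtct
Rnd3: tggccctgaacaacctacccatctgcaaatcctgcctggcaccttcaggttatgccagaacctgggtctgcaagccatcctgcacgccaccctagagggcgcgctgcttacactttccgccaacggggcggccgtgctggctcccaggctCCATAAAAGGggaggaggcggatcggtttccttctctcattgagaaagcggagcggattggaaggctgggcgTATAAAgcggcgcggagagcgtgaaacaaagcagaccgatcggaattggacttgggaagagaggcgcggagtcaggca

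A total of 7 motifs were searched on both strands in all 32851 windows of the same length in the table. The full CRE, TGACGTCA, was present in 1.79% of all windows, and among the 9 windows it was found in Arl4d at bases -26 to -19 from the start and in Arl5b at -121 to -114. The shorter CRE letters TGACG, which the full CRE contains on each strand, were in 20.8% of windows. Outside the full CRE they occurred in Arl4d at -228 to -224, in Arl5b at -104 to -100, in Arl4c at -198 to -194, in the second start of Arl4a at -95 to -91 and in Rheb at -247 to -243. Arl5b also held GCGNGGGCG, the letters of an EGR site, at -48 to -40 (5.55% of windows). Arl4c held a MEF2 site at -214 to -205 (3.19% of windows), and the first start of Arl4a held TGANTCA, the AP-1 letters, at -248 to -242 (7.81% of windows). Rnd3 held a CArG box, the binding letters of serum response factor, at -100 to -91 (1.63% of windows) and TATAAA at -28 to -23 (13.6% of windows). Rem2 and Rhob had none of the 7 motifs in these windows. These are matches of letters, and binding was not measured.

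**Figure D1:**
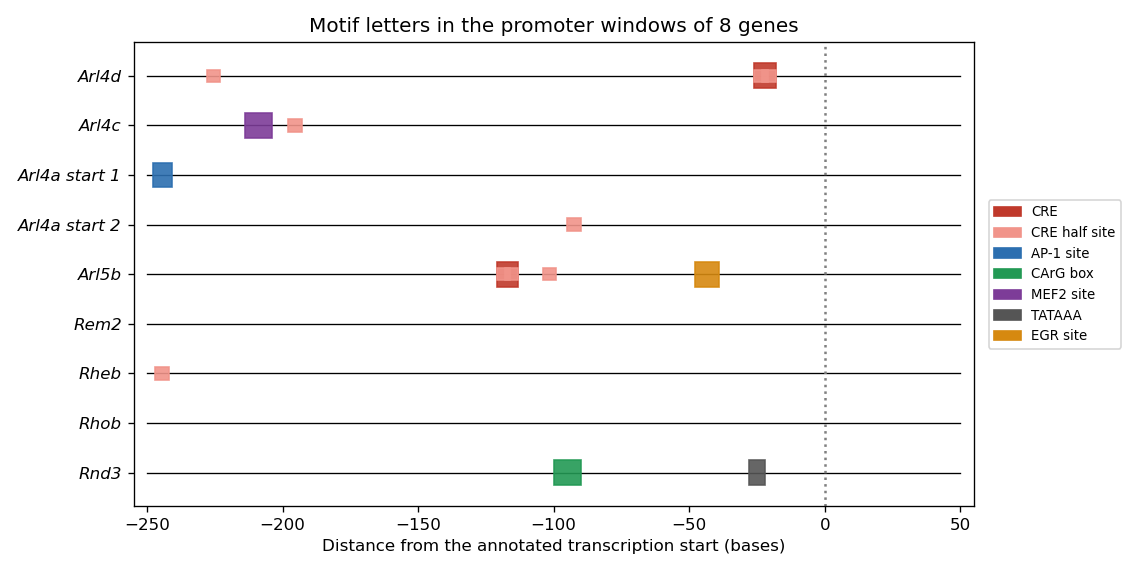
Motif matches in the 9 promoter windows of 8 genes, by distance from the annotated start in bases; each horizontal line is a window from 250 bases before to 50 bases after the start, and each coloured box is a match. The full CRE appears in the Arl4d and Arl5b lines, and the Rem2 and Rhob lines are empty.

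Libraries held 22625916 to 23096206 estimated counts, and 24682 to 25841 gene symbols were detected in each. The lines stood apart: the first principal component of all genes tested held 61.2% of the variance and separated SE-line from SA-line libraries. Most of the marker lists for cell types differed in summed level between the lines. Summed levels of 7 glutamatergic markers were 1005 to 1085 TPM in the SE line and 366 to 540 TPM in the SA line (a library-scaled abundance that is corrected for transcript length). Summed levels of 6 general neuronal markers overlapped, at 2353 to 2821 TPM in the SE line and 2126 to 3251 TPM in the SA line. Levels in the SE line were below those in the SA line for 7 GABAergic markers (92.4 to 154 against 330 to 447 TPM), 6 progenitor markers (220 to 298 against 747 to 2952 TPM), 5 markers of cycling cells (10.04 to 19.3 against 137 to 405 TPM) and 6 astrocyte markers (217 to 291 against 888 to 1549 TPM). The same held for 6 markers of the oligodendrocyte lineage (60.4 to 75.3 against 319 to 457 TPM), 6 of microglia (12.3 to 20.6 against 56.7 to 78.0 TPM), 6 of endothelial and mural cells (2.42 to 3.36 against 7.56 to 23.02 TPM) and 6 of meningeal fibroblasts (8.09 to 11.4 against 37.3 to 98.5 TPM). In such bulk libraries, fewer cells of a type and less RNA per cell cannot be told apart. Single genes also weigh heavily in some sums. C1qa had a median of 44.8 TPM among the microglia markers. Slc17a7 ranged from 13.09 to 487.7 TPM among the glutamatergic markers. Both libraries of wild-type replicate 1 of the SA line stood apart from the rest of their line, with summed progenitor markers at 2623 to 2952 TPM. Most of that sum was Vim, which reached 2659 TPM. Sox2, Pax6, Hes5, Nes and Eomes each stayed at or below 151.1 TPM in every library, so the sum rests mainly on 1 gene. Other sums also set that replicate apart from the SA neurons. Cycling markers were higher (374 to 405 against 137 to 232 TPM). Astrocyte (888 to 950 against 1270 to 1417 TPM) and neuronal markers (2126 to 2234 against 2382 to 3251 TPM) were lower. Glutamatergic, GABAergic and microglia sums overlapped those of SA. Several results that rest on these libraries are given with and without them.

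Arl4d, an ARF-like GTPase of the plasma membrane, was higher after KCl in each line, but by very different amounts. The gene (ENSMUSG00000034936.2, GRCm38 chromosome 11, 101665541 to 101667832, plus strand) has 2 exons and a single annotated transcript of 1382 bases, and its deposited counts were whole numbers in all 14 libraries. In the SE line it had 259.8 and 216 CPM (counts scaled to a common library size after TMM normalization) in SE neurons after KCl and 241 CPM in wild-type neurons after KCl, against 20.7 and 23.4 CPM in basal SE neurons and 23.1 CPM in basal wild-type neurons. SA-line libraries had 11.8 and 14.6 CPM of Arl4d in SA neurons after KCl and 17.6 and 12.9 CPM in wild-type neurons after KCl, against 9.96 and 9.32 CPM in basal SA neurons and 10.4 and 9.46 CPM in basal wild-type neurons. Within each line all KCl libraries lay above all basal libraries. The lowest SE-line KCl library was far above every SA-line library, and even the basal SE-line libraries lay above every KCl library of the SA line. The raw counts behind these values were 4653 to 5474 in the 3 SE-line KCl libraries and 218 to 514 in the other 11.

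**Figure D2:**
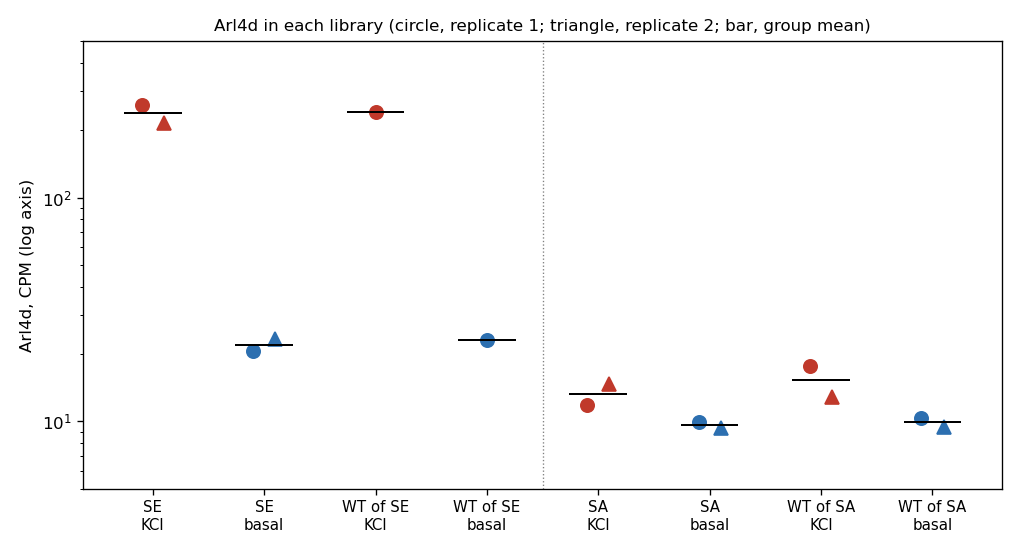
Arl4d in each of the 14 libraries in CPM on a log axis; red is KCl, blue is basal, circles are replicate 1, triangles are replicate 2 and bars are group means, with SE-line groups left of the dotted line. The 3 SE-line KCl libraries sit at 216 to 259.8 CPM and the 4 SA-line KCl libraries at 11.8 to 17.6 CPM.

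Averaged over the genotypes of a line, Arl4d stood at 239 ± 22.03 CPM after KCl (SD, n = 3) and 22.4 ± 1.47 CPM at basal (SD, n = 3) in the SE line. For the SA line the means were 14.2 ± 2.54 CPM after KCl (SD, n = 4) and 9.78 ± 0.486 CPM at basal (SD, n = 4). The fitted response to KCl was 3.42 ± 0.15 on the log2 scale (SE of the fit, a 10.7-fold difference) in the SE line and 0.54 ± 0.12 (1.45-fold) in the SA line. The difference between the lines' responses was 2.88 ± 0.19. It was 2.76 ± 0.30 between the wild-type libraries alone, which carry no substitution, and 2.98 between the SE and SA libraries alone. Among all genes tested, 27 of 17732 (0.152%) were called for a line difference in response at an adjusted p under 0.05, 24 of them with the larger response in the SE line, and Arl4d was the 4th largest of the 27. That count chose Arl4d, so nothing is read from its being among them. SE-line neurons also had more Arl4d before KCl, by 1.19 ± 0.13 on the log2 scale. Without the wild-type libraries of replicate 1 of the SA line the difference in response was 2.97. The SE-line and SA-line libraries also differed in the marker sums given above, whose part in this difference was not tested.

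Among the other ARL genes Arl5b had the largest change after KCl. Arl5b, a GTPase of the trans-Golgi that in human cells recruits the GARP tethering complex, had 158, 179 and 137 CPM in the SE line after KCl (2 SE libraries, then wild type), against 44.0, 37.8 and 42.2 CPM at basal in the same order. SA-line values of Arl5b were 128 and 106 CPM in SA and 101 and 185 CPM in wild type after KCl, against 40.8 and 34.0 CPM in SA and 35.4 and 43.5 CPM in wild type at basal. The KCl and basal libraries did not overlap in either line, and the fitted responses were 1.93 ± 0.21 in the SE line and 1.75 ± 0.18 in the SA line on the log2 scale. The 2 line responses of Arl5b differed by 0.18 ± 0.27. The gene overlaps Nsun6 on the opposite strand and the unconfirmed gene model Gm38257 on its own, and strand-specific counting is not stated, so some of its reads may belong to these.

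Arl4c, which shares the cytohesin partners of Arl4d in mammalian cell lines, had 200.2, 188 and 189 CPM after KCl in the SE line (2 SE libraries, then wild type), against 121, 126 and 119 CPM at basal. For SA-line libraries Arl4c stood at 242 and 241 CPM in SA and 215 and 225 CPM in wild type after KCl, against 162 and 191 CPM in SA and 176 and 159 CPM in wild type at basal. No KCl library overlapped a basal library of its line, although the responses were small, at 0.66 ± 0.09 in the SE line and 0.42 ± 0.08 in the SA line on the log2 scale. Arl4a, the remaining ARL4 gene, had 32.4 to 41.5 CPM after KCl against 45.6 to 52.8 CPM at basal in the SE line, a fitted change of -0.44 ± 0.14. Its SA-line range of 46.5 to 57.8 CPM after KCl overlapped that of 46.2 to 61.2 CPM at basal, with a fitted change of -0.09 ± 0.12. The change of Arl4a passed the threshold in neither line.

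The RGK genes had low levels. Rem2, the calcium channel inhibitor that neuronal activity induces in rodent neurons, had 26.6, 21.3 and 23.1 CPM after KCl in the SE line (2 SE libraries, then wild type), against 3.74, 5.83 and 3.47 CPM at basal. SA-line Rem2 was 10.4 and 11.6 CPM in SA and 17.5 and 10.6 CPM in wild type after KCl, against 3.57 and 3.25 CPM in SA and 3.74 and 3.61 CPM in wild type at basal. The groups were separate in each line, and every SE-line KCl library exceeded every SA-line KCl library. Fitted responses were 2.46 ± 0.23 in the SE line and 1.81 ± 0.20 in the SA line on the log2 scale, a difference of 0.65 ± 0.30. Gem, the other member of that group here, had 5.03, 5.10 and 6.33 CPM after KCl in the SE line, against 2.21, 1.78 and 2.88 CPM at basal. Gem in the SA line had 6.80 and 7.502 CPM in SA and 11.5 and 7.77 CPM in wild type after KCl, against 3.0 and 5.60 CPM in SA and 10.3 and 4.19 CPM in wild type at basal. The high basal value was the wild-type replicate 1 library that also had a high sum of progenitor markers, and with it the SA-line groups overlapped. The fitted Gem response was 1.27 ± 0.36 in the SE line and 0.57 ± 0.29 in the SA line, or 0.81 in the SA line without both libraries of that replicate.

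Rasd1, a RAS-like GTPase first found as a dexamethasone-induced gene, was the least abundant of the 10 by median TPM. It had 4.98, 4.22 and 4.03 CPM after KCl in the SE line (2 SE libraries, then wild type), against 0.812, 1.00 and 0.868 CPM at basal. SA-line Rasd1 was 8.14 and 7.67 CPM in SA and 0.636 and 6.39 CPM in wild type after KCl, against 0.522 and 0.513 CPM in SA and 0.279 and 0.291 CPM in wild type at basal. The 0.636 CPM of wild-type replicate 1 rested on 16 counts, where the other 3 SA-line KCl libraries held 149 to 183. The basal SA-line libraries held 7 to 12 counts each. The fitted response was 2.295 ± 0.63 in the SE line and 3.76 ± 0.60 in the SA line, a difference of -1.46 ± 0.88. Without both libraries of that replicate the SA-line response was 4.18 and the difference -1.88. Without the KCl library of wild-type replicate 2 instead, they were 2.53 and -0.24.

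Rheb, the direct activator of the TORC1 kinase, had 143 to 152 CPM after KCl against 127 to 133 CPM at basal in the SE line, and 101 to 114 CPM after KCl against 74.7 to 86.7 CPM at basal in the SA line. The ranges did not overlap within either line, and the fitted responses were 0.19 ± 0.09 in the SE line and 0.38 ± 0.07 in the SA line on the log2 scale. Rhob and Rnd3 moved little. Rhob, an endosomal GTPase that growth factors induce within minutes in fibroblasts, had 197 to 227 CPM after KCl against 193 to 209 CPM at basal in the SE line, and 197 to 259 CPM after KCl against 202 to 287 CPM at basal in the SA line. Its fitted responses were 0.04 ± 0.10 in the SE line and -0.06 ± 0.09 in the SA line, with overlapping groups in each. Rnd3, a GTPase that stays GTP-bound, had 55.9 to 60.9 CPM after KCl against 46.5 to 55.7 CPM at basal in the SE line, a fitted 0.20 ± 0.16. In the SA line Rnd3 had 50.1 to 99.5 CPM after KCl against 44.6 to 79.5 CPM at basal, a fitted 0.31 ± 0.14.

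**Figure D3:**
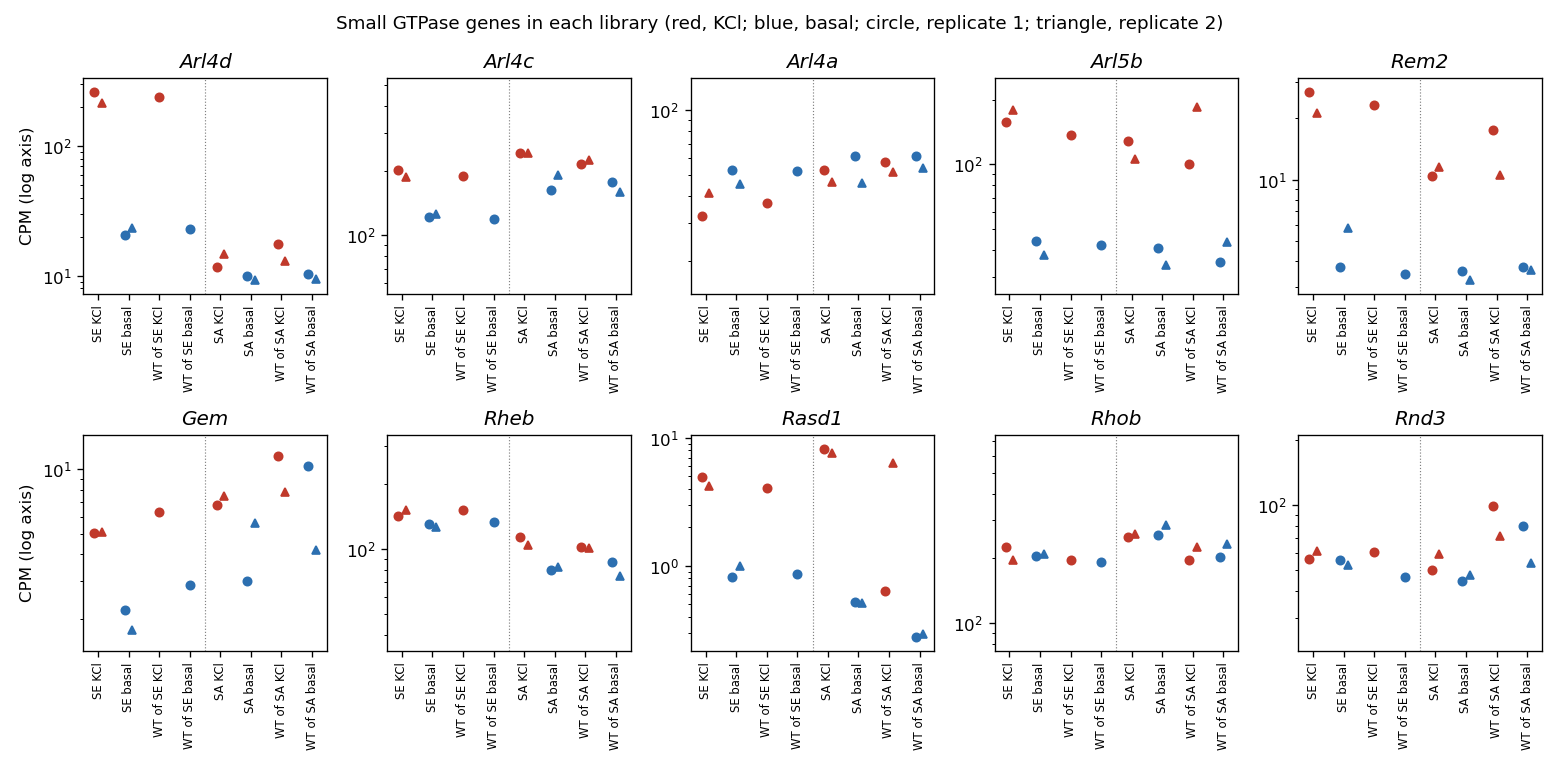
The 10 small GTPase genes in each library in CPM on log axes, with SE-line groups left of the dotted line, KCl in red and basal in blue, replicate 1 as circles and replicate 2 as triangles. Rasd1 in wild-type replicate 1 of the SA line after KCl (0.636 CPM) lies near the basal libraries, and Gem and Rnd3 are highest in wild-type replicate 1 of the SA line.

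Counted over the set, 4 of the 10 genes were called after KCl in the SE line (Arl4c, Arl4d, Arl5b and Rem2, all higher), where 2.81% of all genes were called (1.82% higher). In the SA line 5 of the 10 were called (Arl4c, Arl5b, Rem2, Rheb and Rasd1, all higher), where 2.02% of all genes were called (1.38% higher). The genes were picked for responding, so these counts describe the choice. Arl4d was not among the 5 called in the SA line, although its 4 KCl libraries lay above its 4 basal libraries there. Differences in response between lines, other than that of Arl4d, ranged from -1.46 (Rasd1) to 0.70 ± 0.46 (Gem) on the log2 scale.

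**Figure D4:**
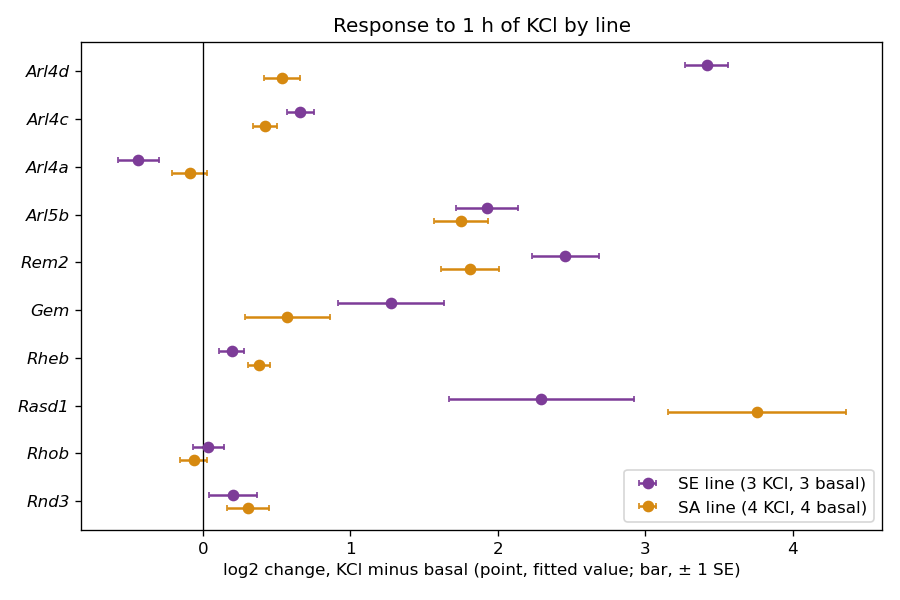
Fitted log2 change, KCl minus basal, of each gene in the SE line (3 KCl and 3 basal libraries) and the SA line (4 KCl and 4 basal libraries); points are fitted values and bars are ± 1 SE of the fit. Arl4d has the widest gap between lines (3.42 in the SE line and 0.54 in the SA line), and Rasd1 has the larger point in the SA line, a gap that falls to -0.24 without the KCl library of wild-type replicate 2.

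Substitution of serine 1382 changed none of the 10 genes past the threshold. In 6 comparisons, SE with its wild type and SA with its wild type at basal, after KCl and in the response to KCl, edgeR's quasi-likelihood test called 0 of 10 genes at an adjusted p under 0.05. It called 0% of all 17732 genes in each of the 6. At an unadjusted p under 0.05 there were 0 of the 10 genes in the 3 SE comparisons, 2 for SA at basal, 1 for SA after KCl and 0 for the SA response. DESeq2 called 0 of the 10 genes in each of the 6 comparisons, and of all genes it called 119 for SA after KCl, 1 for SE after KCl, 1 for the SE response and 0 in the other 3. With 1 wild-type library per treatment in the SE line, and 2 libraries in each other group, a miss of the threshold does not show that the genotypes are alike.

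For Arl4d the fitted difference between SE and wild type was -0.02 ± 0.20 on the log2 scale after KCl, and the responses differed by 0.05 ± 0.29 (adjusted p = 1 for both, edgeR). Between SA and wild type it was -0.21 ± 0.17 after KCl (adjusted p = 0.599, edgeR) and the responses differed by -0.17 ± 0.25 (adjusted p = 1, edgeR). These values changed sign when single libraries were left out, and those of SE rest on 1 wild-type library per treatment. The largest differences of SE from its wild type at basal were -0.53 ± 0.54 for Gem and 0.46 ± 0.36 for Rem2, neither past the threshold (adjusted p = 1 for both, edgeR). After KCl Gem differed by -0.32 ± 0.50 (adjusted p = 1, edgeR). Differences in response between SE and wild type ranged from -0.41 to 0.34 over the 10 genes.

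In the SA line, Rnd3 had 50.1 and 59.2 CPM in SA and 99.5 and 71.6 CPM in wild type after KCl. At basal it had 44.6 and 47.2 CPM in SA and 79.5 and 53.9 CPM in wild type. SA libraries lay below wild-type libraries in both conditions, with fitted differences of -0.65 ± 0.20 after KCl (adjusted p = 0.344, edgeR) and -0.54 ± 0.20 at basal (adjusted p = 0.621, edgeR). Without both libraries of wild-type replicate 1 they were -0.39 after KCl and -0.23 at basal. Gem differed by -0.43 ± 0.41 after KCl and -0.75 ± 0.42 at basal, and without that replicate by -0.12 after KCl and 0.04 at basal. Rhob was higher in SA by 0.27 ± 0.13 after KCl (adjusted p = 0.448, edgeR) and 0.32 ± 0.13 at basal (adjusted p = 0.621, edgeR), neither past the threshold. Without both libraries of wild-type replicate 1 the Rhob differences were 0.17 after KCl and 0.22 at basal. Rasd1 differed by 1.18 ± 0.68 after KCl (adjusted p = 0.496, edgeR) and 0.85 ± 1.03 at basal (adjusted p = 0.784, edgeR). The value after KCl depends on which wild-type library is kept: it was 0.31 without both libraries of replicate 1 and 3.62, with an adjusted p of 0.0216 (edgeR), without the KCl library of replicate 2. Differences in response between SA and wild type ranged from -0.24 to 0.32 over the 10 genes. Rnd3 and Gem were highest in wild-type replicate 1, which also stood apart in several of the marker sums given above. The part of these sums was not tested.

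**Figure D5:**
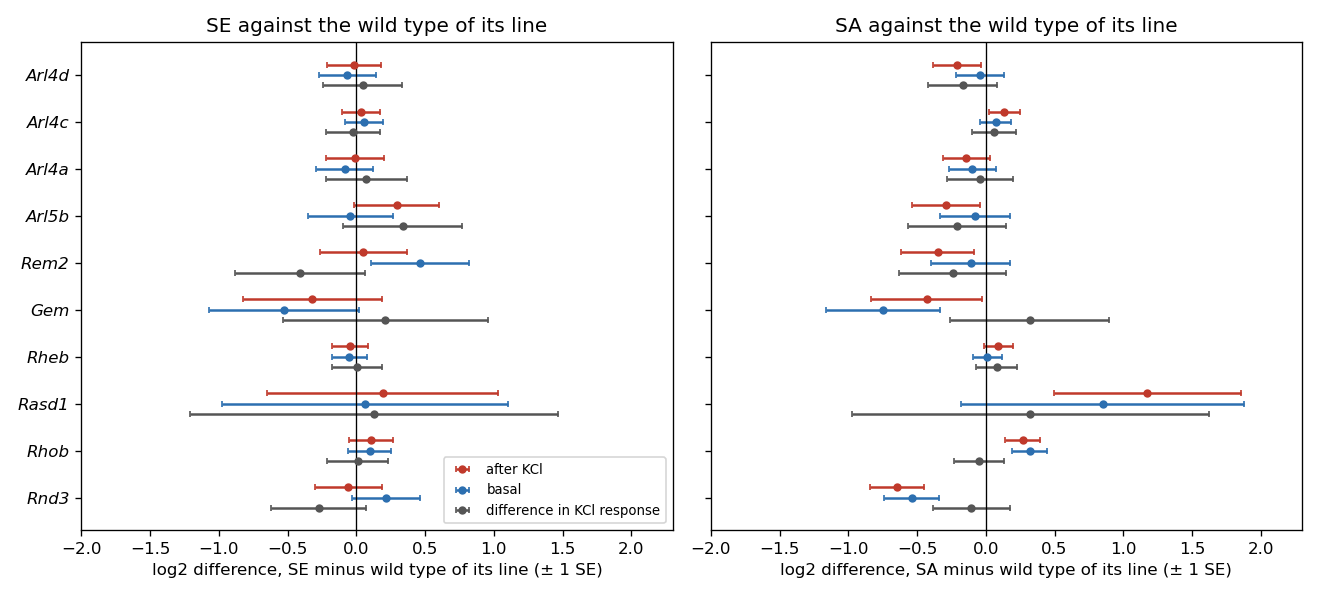
Fitted log2 differences, SE minus wild type of its line (left) and SA minus wild type of its line (right), for each gene after KCl, at basal and in the response to KCl; bars are ± 1 SE of the fit. None of the differences passed an adjusted p under 0.05, and the bars are widest for Rasd1.

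At basal the lines differed for 4 of the 9 genes other than Arl4d, where 47.8% of all genes differed, so the share is close to that of all genes. Rheb was higher in SE-line neurons than in SA-line neurons, by 0.69 ± 0.08 on the log2 scale (adjusted p = 0.000122, edgeR), with 127 to 133 CPM in the SE line and 74.7 to 86.7 CPM in the SA line. Arl4c was lower in the SE line by -0.50 ± 0.09 (adjusted p = 0.00131, edgeR), with 119 to 126 CPM in the SE line and 159 to 191 CPM in the SA line. Gem was lower by -1.31 ± 0.34 (adjusted p = 0.0106, edgeR), with 1.78 to 2.88 CPM in the SE line and 3.0 to 10.3 CPM in the SA line, and by -0.92 without wild-type replicate 1 of the SA line (adjusted p = 0.0128, edgeR). Its call was lost without basal SE replicate 2 (-1.20, adjusted p = 0.0606, edgeR). Rhob was lower by -0.27 ± 0.10 (adjusted p = 0.0468, edgeR), a call that 12 of 18 alternatives did not keep. Without both libraries of wild-type replicate 1 of the SA line the Rhob difference was -0.32. The other 5 did not pass: Arl4a (-0.15 ± 0.13), Arl5b (0.10 ± 0.19), Rem2 (0.28 ± 0.22), Rasd1 (1.21 ± 0.71) and Rnd3 (-0.10 ± 0.15). Rasd1 passed without both libraries of SA-line wild-type replicate 1 (1.19, adjusted p = 0.00481, edgeR). It also passed without the KCl library of that replicate alone (adjusted p = 0.00169, edgeR) or of replicate 2 (adjusted p = 0.00182, edgeR). DESeq2 called 4 of the 9. After KCl, described only, the line differences were 4.07 ± 0.14 for Arl4d, 0.93 ± 0.20 for Rem2 and 0.50 ± 0.08 for Rheb.

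Levels between genes can be compared only per length, in TPM, given here as the median over 14 libraries with the range. Rhob stood at 138 TPM (113 to 184) and Rheb at 129 TPM (87.9 to 174), and these ranges overlap. Arl4c followed at 72.6 TPM (42.7 to 93.7), then Arl4a at 43.0 TPM (28.7 to 58.5) and Rnd3 at 36.6 TPM (27.9 to 75.5), each overlapping its neighbours in the order. Arl5b had 22.6 TPM (9.77 to 54.8) and Arl4d 20.1 TPM (11.1 to 289). Arl4d reached 265 ± 23.2 TPM after KCl in the SE line (SD, n = 3), above every TPM value of the other 9 genes, and was at 17.4 ± 4.05 TPM after KCl in the SA line (SD, n = 4). Rem2 at 6.87 TPM (2.69 to 22.4), Gem at 4.75 TPM (1.49 to 11.4) and Rasd1 at 0.876 TPM (0.303 to 7.99) closed the order, again with overlapping ranges.

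Single transcripts were described from the deposited TPM per transcript, which kallisto divides by model where transcripts share sequence. Arl4a came from 2 coding transcripts, and the shorter one, Arl4a-201 (1200 bases), made up 61.8% of its TPM after KCl against 52.3% at basal in the SE line, and 60.0% after KCl against 51.4% at basal in the SA line. Its level hardly moved in the SE line, at 20.2 TPM after KCl and 20.6 TPM at basal, while the longer Arl4a-205 (3710 bases) had 12.1 TPM after KCl and 18.3 TPM at basal. Rheb-203, a retained-intron transcript of 4046 bases, had 1.06 to 1.79 TPM in the 7 KCl libraries and 0.277 to 0.591 TPM in the 7 basal libraries, with no overlap in either line. It was 0.22% to 1.30% of Rheb, so it added little to the gene's level. Rheb-202, a retained-intron transcript of 522 bases, was 0% to 23.56% of Rheb TPM, on at most 119.8 estimated counts per library. Arl5b-207, a short coding transcript of 706 bases, had 6.44 to 9.82 TPM in the 3 SE-line KCl libraries and 0 to 0.306 TPM in the 4 SA-line KCl libraries. At basal it averaged 1.95 TPM in the SE line and 0.864 TPM in the SA line, and the libraries of the lines overlapped. The main transcript, Arl5b-202, averaged 40.1 TPM in the SE line and 36.1 TPM in the SA line after KCl, so the lines were closer for the main transcript than for the short one. In the SE-line KCl libraries Arl5b-202 held 3248.6 of 3320, 3793 of 3856 and 2925.6 of 2997 estimated counts of the gene. Arl5b-207 thus rested on few counts, and its short length raises its TPM per count. Rnd3-202, a retained-intron transcript, averaged 0.267 TPM (0 to 0.801) in the SE line and 3.64 TPM (0 to 5.29) in the SA line after KCl. These ranges overlap, and the SA-line values rested on at most 30.1 estimated counts per library. Arl4c, Gem, Rem2 and Rnd3 each came mainly from 1 coding transcript, at 86.2% or more of the gene's TPM in every library, and Arl4d, Rasd1 and Rhob had 1 annotated transcript.

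Genes with responses to KCl most like that of Arl4d were found by a root mean square difference. It was taken over the fitted log2 responses of the 4 genotype groups. The search covered 13148 genes with a mean of at least 1 CPM, with unnamed gene models left out. In order, the nearest genes were Fosl1 (0.595), Jun (0.620), Apold1 (0.644), Ccno (0.708) and Sertad1 (0.735). Fosl1 and Jun encode AP-1 subunits. Jun responded by 3.41 in SE and 3.24 in wild type of the SE line, and by 1.53 in SA and 1.22 in wild type of the SA line, on the log2 scale. Fosl1 responded by 2.77 in SE and 2.63 in wild type of the SE line, and by 1.03 in SA and 0.92 in wild type of the SA line. Both were picked for closeness to Arl4d in these same responses, so nothing is read from their larger response in the SE line. Their SA-line responses were larger than that of Arl4d. Fosl1 averaged 46.4 CPM after KCl and 6.996 CPM at basal in the SE line. Its SA-line means were 6.80 CPM after KCl and 3.47 CPM at basal. Jun averaged 309.6 CPM after KCl and 30.3 CPM at basal in the SE line. In the SA line Jun averaged 201.4 CPM after KCl and 77.9 CPM at basal. Mean basal levels of Jun, Apold1, Ccno and Sertad1 were higher in the SA line, whereas those of Arl4d and Fosl1 were higher in the SE line.

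The nearest protein-coding genes among those tested, on each side of Arl4d on chromosome 11, had no called response to KCl. They were chosen after their values were seen. Genes in between that are non-coding or did not pass the filter on low counts were not looked at. Counted from the nearest edge of Arl4d, with negative distances before its start, they were Nbr1 (-83.6 kb), Tmem106a (-73.8 kb), Rdm1 (-29.4 kb), Dhx8 (65.1 kb), Etv4 (101.9 kb) and Meox1 (209.7 kb). None of the 6 was called after KCl in either line or for a line difference in response (edgeR). Of all genes, 2.81% were called after KCl in the SE line, 2.02% in the SA line and 0.152% for the line difference. With shares this low, nothing is read from the lack of calls among 6 genes. Nbr1, an autophagy receptor, averaged 128 CPM after KCl and 134 CPM at basal in the SE line, and 124 CPM after KCl and 130.1 CPM at basal in the SA line. Dhx8, an RNA helicase of the spliceosome, averaged 54.98 CPM after KCl and 56.2 CPM at basal in the SE line, and 45.1 CPM after KCl and 47.1 CPM at basal in the SA line. At basal 5 of the 6 differed between lines: Dhx8 (0.26) and Meox1 (3.02) were higher in the SE line on the log2 scale, and Tmem106a (-1.36), Rdm1 (-1.84) and Etv4 (-1.42) were lower (adjusted p of 0.000491 to 0.0222, edgeR). Nbr1 did not pass (0.04, adjusted p = 0.685, edgeR). Of all genes, 47.8% differed between the lines at basal.

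Other genes of small GTPase pathways were called after KCl at about the rate of all genes or below it. The other genes were read from 9 lists of 179 distinct genes (among them other ARF and RAS branch GTPases, ARF exchange factors and GAPs, partners of ARL4 and ARL5, the RHEB and TORC1 pathway, RGK targets and RASD1 partners), of which 173 were tested. In the SE line 4 rose and 1 fell after KCl, 2.89% of the 173, where 2.81% of all genes were called. In the SA line 2 rose and 0 fell, 1.16%, where 2.02% of all genes were called. Both shares are near or below those of all genes, so nothing particular to these genes is read from them. The counts depended on the model. With a replicate block they were 18 in the SE line (of 1771 genes in all) and 8 in the SA line (of 1040). With a fit of 1 line they were 18 in the SE line (of 1638) and 0 in the SA line (of 166). Among the other RAS branch GTPases (28 tested) 3 rose and 1 fell in the SE line and 2 rose in the SA line, and among the other ARF, ARL and SAR GTPases (23 tested) the 1 call over both lines was Arf6, in the SE line. For a line difference in response, and for SE or SA against wild type, edgeR called 0 of the 173.

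Among them, Arf6, the GTPase that cytohesins load, rose after KCl in the SE line by 0.52 ± 0.09 on the log2 scale (adjusted p = 0.0137, edgeR), with 64.2 CPM after KCl and 44.9 CPM at basal. Rasl11a, a RAS-like protein, rose by 1.56 in the SE line (adjusted p = 0.00181, edgeR) and by 0.75 in the SA line (adjusted p = 0.0483, edgeR). Rrad, the RGK gene related to Rem2 and Gem, rose by 1.52 in the SE line (adjusted p = 0.0245, edgeR) and by 1.146 in the SA line (adjusted p = 0.045, edgeR). Rap1b rose by 0.50 (adjusted p = 0.0269, edgeR) and Rap2b fell by 0.59 (adjusted p = 0.00722, edgeR) in the SE line, both RAS-branch GTPases of cell adhesion. These genes are named for the lowest p in their lists, which were chosen with earlier results known, so their p-values are descriptive only. Rasl11a in the SE line kept its call in all 20 alternatives, and each of the other 6 calls was lost in 2 to 15 of them, mostly when a library was left out. The ARF exchange factors and GAPs (25 tested, median response 0.11 in the SE line and 0.03 in the SA line) and the partners of ARL4 and ARL5 (13 tested, medians 0.12 and 0.02 in the same order) had none called, beside a median over all genes of 0.01 in the SE line and 0.00 in the SA line. The RHEB and TORC1 pathway (20 tested), the RGK targets (18 tested) and RASD1 partners (10 tested) also had none called in either line. At basal 104 of the 173 genes differed between lines, 60 higher and 44 lower in the SE line (60.1%), where 47.8% of all genes differed.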

How the data were processed

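RNA was profiled in 14 libraries in 8 groups, read from the sample labels. The authors quantified transcripts with kallisto 0.43.1 on GRCm38 (mm10), per the submitters' processing notes. They deposited an estimated count and a TPM value per transcript and per gene symbol; the TPM is scaled to transcript length and library total. For the 10 genes, transcript values summed to the gene value. Reads shared by overlapping transcripts or paralogs are split by kallisto's model.

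Estimated counts were rounded and fitted with edgeR 4.0.16 in R 4.3.3: low counts filtered with filterByExpr over 6 genotype-treatment classes, TMM scaling (factors 0.9192 to 1.103), and quasi-likelihood tests with 8 group means over all 14 libraries and 6 residual degrees of freedom. The spread of the wild type of the SE line, with 1 library per treatment, was taken to equal that of the rest. Line means weighted the cultures equally. Calls were made at p under 0.05 after Benjamini-Hochberg correction across 17732 genes. CPM is scaled by TMM. Scripts were tested on simulated data. Alternatives used DESeq2 1.42.0, limma 3.58.1 on log2(TPM + 0.5) and log2(TPM + 0.1), other scaling and filters, each library left out, the fit of 1 line only and a replicate block.

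The 10 genes, the lists and the markers were chosen with earlier results of these data known. Separate counts of 2 of the 9 lists are not reported here. Named were all 10 genes, up to 4 genes of each list with the lowest p in a comparison (only those called are given), and the 5 genes nearest to Arl4d; neighbours of Arl4d on the chromosome were added after their values were seen. Coordinates are 1-based, from GENCODE M21 on GRCm38; promoters are from RefSeq on GRCm38.p6.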

Additional observations from a re-analysis of the deposited data

How the results depend on the processing

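Of 80 results under 1582 alternative values, 52 were stable in every alternative: tested values kept their direction and side of the threshold, described values moved by less than the spread between replicates, and counts stayed within 1.5 times. Otherwise 12 tested values reversed, 62 lost and 4 gained their call, and 48 moved. The Arl4d difference in response between lines ranged from 2.78 to 2.999 over its 22 alternatives. Of the 10 genes, the number called for SA after KCl was 0 to 1 leaving out each library. It was 2 to 5 (of 9) for the lines at basal, 4 to 6 after KCl in the SE line, and 2 to 5 in the SA line. With a replicate block, 7 of the 10 in the SE line and 8 in the SA line were called after KCl, of 1771 genes in all in the SE line and 1040 in the SA line. With a fit of 1 line only it was 7 in the SE line and 2 in the SA line, of 1638 genes in the SE line and 166 in the SA line. Among the 173 other GTPase pathway genes, leaving out each library gave 1 to 7 calls after KCl in the SE line, 0 to 2 in the SA line and 69 to 114 for the lines at basal. The block gave 18 of them in the SE line and 8 in the SA line, and the fit of 1 line 18 in the SE line and 0 in the SA line; DESeq2 size factors gave 1 in the SA line, and DESeq2 called 2 for SA after KCl. The alternatives for these genes, and leaving out both libraries of wild-type replicate 1 of the SA line, were chosen after seeing the data. Leaving out single libraries, or both of wild-type replicate 1 of the SA line, reversed 6 tested differences, whose ranges were -1.27 to 0.04 for Gem in SA at basal, -0.42 to 0.03 for Arl4d in SA after KCl, -0.37 to 0.07 for the Arl4d response in SA, -0.16 to 0.11 for Arl4d in SE after KCl (0.0065 with the replicate block), -0.10 to 0.16 for the Arl4d response in SE and -0.23 to 0.05 for Rnd3 between lines at basal. With both libraries of that replicate left out, or its single library alone, Gem at basal was 0.0376 or 0.0373, Arl4d after KCl 0.0327 or 0.032, its response 0.00663 or 0.0749 in SA, and Rnd3 between lines 0.0474 or 0.0483. Without 1 basal SE library the Arl4d response in SE was -0.0571. Small described values also changed sign without 1 library: Arl4a after KCl in the SA line (to 0.018), Rhob after KCl in the SE line (to -0.022), and the line differences in response of Arl5b (to -0.0082, and -0.14 between wild types) and Rnd3 (to 0.026, and 0.04 between wild types). The causes were not tested. The labels do not pair same-numbered libraries: deviations of KCl and basal libraries correlated at 0.335 in SA, 0.579 in its wild type and -0.054 in SE, so the reported fit has no block. Comparisons that need the SE-line wild type could not be fitted without its single libraries. With 7 to 22 counts in each basal library, Rasd1 is the gene whose values depth limits most.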
